A study of Mus musculus with 35 samples.

Results

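The 10 genes described here encode chemokines, small secreted or membrane-bound proteins that draw leukocytes and microglia towards injured tissue. They are Ccl2, Ccl3, Ccl4, Ccl5, Ccl6, Ccl7, Ccl12, Cxcl1, Cxcl10 and Cx3cl1, taken by symbol from the 32544 genes of the count tables. Their transcripts were followed in mouse hippocampus after status epilepticus, a prolonged seizure, to ask how each differed 24 hours and 2 weeks later.

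All animals were adult male C57BL/6JOlaHsd mice with a cannula over the amygdala. IAKA mice received kainic acid, an agonist of glutamate receptors, into the amygdala and lorazepam afterwards, and PBS mice received the vehicle by the same route. Of each mouse, total hippocampal RNA (input), RNA pulled down with an antibody against N6-methyladenosine (m6A), or both were sequenced, so every library stands for 1 mouse and 1 whole hippocampal extract. At 24 hours 5 IAKA and 3 PBS animals had an m6A library, and at 2 weeks 6 IAKA and 5 PBS animals did. Input libraries of at least 100000 counts covered 3 IAKA animals and 1 PBS animal at 24 hours, then 6 IAKA and 3 PBS animals at 2 weeks. Levels are given as CPM (counts per 1000000 counts of the library).

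Total counts ran from 1652933 to 34564536 in the 19 m6A libraries and from 3057578 to 12694434 in these 13 input libraries. The other 3 input libraries, of IAKA mouse 97 and PBS mice 71 and 73 at 24 hours, held 3171, 4621 and 34486 counts and were left out. A library in which a gene has no count still allows up to 3 counts, which is 0.236 CPM in the input of PBS mouse 1 and 1.81 CPM in the shallowest m6A library, that of IAKA mouse 98. The libraries of IAKA mouse 8 at 24 hours stood apart, with 16.4% of m6A counts and 17.4% of input counts on mitochondrial genes, as did the m6A library of IAKA mouse 6 at 2 weeks, with 17.5%. The other libraries had between 1.41% and 11.1%. The assay is named in the columns of 8 libraries and was inferred from the naming of the columns for the other 27, so the split into m6A and input rests on that reading.

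Chemokines act through G protein-coupled receptors, and the family is divided by the spacing of its first cysteines into CC, CXC and CX3C members. Ccl2, Ccl7 and Ccl12 attract monocytes through Ccr2. Ccl3, Ccl4 and Ccl5 attract monocytes and T cells, Ccl3 and Ccl5 in part through Ccr1, and Ccl6 is a CC chemokine of myeloid cells. Cxcl1 attracts neutrophils through Cxcr2, Cxcl10 is induced by interferon and attracts activated T cells through Cxcr3, and Cx3cl1 (fractalkine) is made mainly by neurons and binds Cx3cr1 on microglia. Transcription of the inducible members is commonly driven by NF-kB, which binds kB sites, and for Cxcl10 also by interferon-activated factors, which bind interferon-stimulated response elements (ISRE).

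On mouse build GRCm38.p6 (mm10), 7 of the 10 genes lie on chromosome 11. Ccl2 (82035577 to 82037452), Ccl7 (82045712 to 82047525) and Ccl12 (82101845 to 82103399) form one cluster there. Ccl5 (83525778 to 83530518), Ccl6 (83587886 to 83593087), Ccl3 (83647843 to 83649378) and Ccl4 (83648624 to 83664683) form another. Cxcl1 (90891245 to 90893121) and Cxcl10 (92346638 to 92348889) are on chromosome 5, and Cx3cl1 (94772180 to 94782427) is on chromosome 8. The annotated Ccl4 model overlaps the Ccl3 gene, and Cxcl10 lies within Art3. Ccl5 overlaps Gm32650, Ccl6 overlaps E230016K23Rik and Cx3cl1 overlaps Gm51543. Since use of strand in counting is not stated, reads of overlapping genes may have been assigned to either.

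The RefSeq promoter table, 300 bases around a transcription start, held 6 of the 10 genes: Ccl3, Ccl6, Ccl12, Cxcl1, Cxcl10 and Cx3cl1. Ccl2, Ccl4, Ccl5 and Ccl7 had no entry. The windows below are those of Cxcl10 and Ccl12, with large fitted differences at 24 hours, of Cxcl1, and of Cx3cl1, with the smallest. Capitals mark matches, on either strand, to a kB-type motif (GGGANNNNCC, reverse GGNNNNTCCC), an ISRE-type motif (GAAANNGAAA, reverse TTTCNNTTTC) or a TATA-type motif (TATAAA, reverse TTTATA). Build and strand of each window are given before it, and each is written 5′ to 3′ on the gene's strand.

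Cxcl10, GRCm38.p6 chr5:92348840-92349139, minus strand: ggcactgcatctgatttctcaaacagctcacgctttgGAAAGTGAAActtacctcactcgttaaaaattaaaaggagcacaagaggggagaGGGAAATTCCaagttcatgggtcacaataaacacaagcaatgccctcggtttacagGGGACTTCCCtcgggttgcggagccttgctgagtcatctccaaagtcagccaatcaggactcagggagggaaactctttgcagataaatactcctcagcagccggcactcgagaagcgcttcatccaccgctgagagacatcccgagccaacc
Ccl12, GRCm38.p6 chr11:82101595-82101894, plus strand: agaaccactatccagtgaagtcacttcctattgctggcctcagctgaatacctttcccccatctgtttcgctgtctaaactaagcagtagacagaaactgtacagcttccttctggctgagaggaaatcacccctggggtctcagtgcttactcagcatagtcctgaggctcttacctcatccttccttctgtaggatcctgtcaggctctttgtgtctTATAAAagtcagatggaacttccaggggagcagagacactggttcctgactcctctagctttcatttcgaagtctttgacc
Cxcl1, GRCm38.p6 chr5:90890995-90891294, plus strand: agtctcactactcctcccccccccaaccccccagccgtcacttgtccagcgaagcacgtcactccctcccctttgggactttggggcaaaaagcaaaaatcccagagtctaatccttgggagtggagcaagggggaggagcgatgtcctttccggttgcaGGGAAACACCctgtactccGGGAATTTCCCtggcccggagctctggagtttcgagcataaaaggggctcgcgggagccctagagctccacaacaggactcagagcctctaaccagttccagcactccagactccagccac
Cx3cl1, GRCm38.p6 chr8:94771930-94772229, plus strand: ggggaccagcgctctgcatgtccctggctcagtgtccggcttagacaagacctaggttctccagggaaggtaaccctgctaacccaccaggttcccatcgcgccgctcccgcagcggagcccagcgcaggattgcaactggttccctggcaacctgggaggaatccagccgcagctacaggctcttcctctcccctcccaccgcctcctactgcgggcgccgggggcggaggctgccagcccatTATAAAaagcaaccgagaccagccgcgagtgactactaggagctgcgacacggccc

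The Cxcl10 window held an ISRE-type match starting 213 bases before the start and kB-type matches starting 159 and 103 bases before it. The Cxcl1 window held kB-type matches starting 90, 71 and 70 bases before the start, of which the last pair overlap. Ccl12 and Cx3cl1 each held 1 TATA-type match and no other, and the windows of Ccl3 and Ccl6 held none of the 3 motifs. Among all 32851 windows of the table, 20.7% held a kB-type match, 3.44% an ISRE-type match and 13.6% a TATA-type match. A match describes letters in the window and not a bound site.

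In the m6A libraries at 24 hours, all 10 chemokines had a higher fitted level in IAKA than in PBS mice, though Ccl5 had a lower one (-0.23) with the column prefix described below as a block. The median log2 fold change was 3.18 over the 10 members and 0.08 over all 16470 genes tested. None of the 10 passed an adjusted P of 0.05 (edgeR quasi-likelihood test, Benjamini-Hochberg over all genes), against 0.00607% of all genes, which is 1 gene (Tm4sf1, named after its value was seen). DESeq2 called 156 genes and 5 members. At an unadjusted P under 0.05, 874 genes passed in either direction, and 7 of 10 members were higher, against 4.01% of all genes. For 6 of 10 (Ccl2, Ccl4, Ccl6, Ccl7, Ccl12 and Cxcl10) every IAKA library lay above every PBS library, against 2.62% of all genes tested. The members were chosen with earlier results of these data known, so these shares are a description. In whole tissue, more cells of a type and more RNA per cell cannot be told apart.

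**Figure D1:**
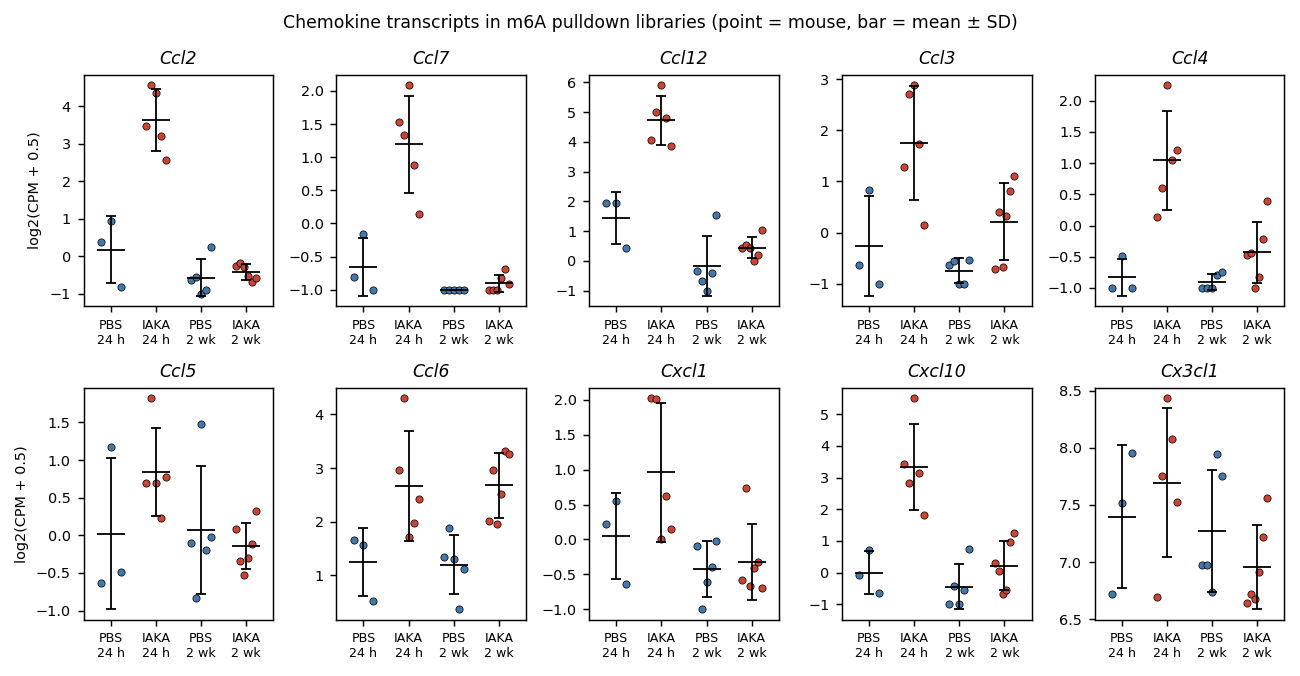
Level of each chemokine in the m6A libraries as log2(CPM + 0.5), 1 point per mouse, with mean ± SD per group (PBS and IAKA at 24 hours and 2 weeks; n = 3, 5, 5 and 6). Ccl2, Ccl7, Ccl12, Ccl4 and Cxcl10 are highest in the IAKA 24-hour column, Ccl6 is high in both IAKA columns, and Cx3cl1 overlaps in all 4.

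The monocyte-attracting group, Ccl2, Ccl7 and Ccl12, was separated between the treatments in all 3 genes. Ccl2 was at 10.6, 23.2, 19.9, 8.84 and 5.44 CPM in IAKA mice 8, 67, 79, 97 and 98, against 0.812, 1.43 and 0.0715 CPM in PBS mice 1, 71 and 73. The lowest IAKA library was above the highest PBS library, and the log2 fold change was 4.06 ± 0.75 (SE), with an adjusted P of 0.157 (edgeR) and an unadjusted P of 0.000277. Ccl12 had the smallest P of the 10. Its levels were 16.2, 31.3, 59.8, 27.5 and 13.9 CPM in the IAKA mice in the same order, against 3.32, 3.33 and 0.858 CPM. The groups did not overlap, and the log2 fold change was 3.53 ± 0.58 (SE), adjusted P of 0.103 (edgeR). Ccl7, the least abundant of the group, was at 2.37, 2.02, 3.75, 1.34 and 0.605 CPM against 0.0738, 0.394 and 0 CPM. The value of IAKA mouse 98 rests on 1 count, and the log2 fold change was 3.58 ± 0.94 (SE), adjusted P of 0.423 (edgeR).

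Without IAKA mouse 8, the animal with the high mitochondrial share, Ccl12 passed the threshold in the same test (log2 fold change 3.65 ± 0.55, SE; edgeR adjusted P of 0.0351). Ccl2, at 4.03 ± 0.70 (SE), came to an edgeR adjusted P of 0.0509 there. With all 19 m6A libraries in 1 fit, Ccl2 passed (edgeR adjusted P of 0.0334) and Ccl12 did not (0.0751). PBS mouse 71 held most PBS counts of several members, and without it the fitted log2 differences were 4.83 for Ccl2, 5.38 for Ccl3, 5.47 for Ccl7 and 5.55 for Cxcl10. Without IAKA mouse 79 that of Cxcl10 was 3.63. Leaving out single libraries gave 0.43 to 2.69 for Ccl5, 1.28 to 2.09 for Ccl6 and 3.12 to 3.78 for Ccl12. The 5 members called by DESeq2 were Ccl2, Ccl4, Ccl7, Ccl12 and Cxcl10.

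The m6A libraries carry a prefix of 3, 4 or 5 in their column names, and the treatments are unevenly spread over these prefixes. At 24 hours, prefix 4 alone holds both treatments, with IAKA mice 79 and 97 and PBS mice 71 and 73. Within it the log2 fold change of Ccl2 was 3.94 ± 0.87 (SE), that of Ccl12 4.17 ± 0.67 and that of Cxcl10 5.05 ± 1.26, with edgeR adjusted P of 0.111, 0.0679 and 0.163. These differences were about as large within the prefix as over all libraries. The Ccl6 difference shrank there to 0.72 ± 0.45 (SE), and that of Ccl5 turned to -0.27 ± 0.80.

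Ccl3, Ccl4 and Ccl5 were less abundant and less uniform. Ccl3, made by activated microglia and macrophages, was at 1.93, 6.06, 6.88, 2.82 and 0.605 CPM in IAKA mice 8, 67, 79, 97 and 98, against 0.148, 1.29 and 0 CPM in PBS mice 1, 71 and 73. IAKA mouse 98, with 1 count, fell within the PBS range, and the log2 fold change was 2.82 ± 1.05 (SE), adjusted P of 0.780 (edgeR). Ccl4 was at 0.594, 1.01, 4.25, 1.56 and 1.81 CPM against 0, 0.215 and 0 CPM. All 6 of its PBS counts came from mouse 71, so its log2 fold change of 4.26 ± 1.04 (SE), adjusted P of 0.374 (edgeR), rests on that library. Ccl5 was at 1.11, 3.03, 1.13, 0.668 and 1.21 CPM against 0.148, 1.76 and 0.215 CPM. PBS mouse 71 lay above 4 of the 5 IAKA libraries, and the log2 fold change was 0.85 ± 0.84 (SE), adjusted P of 0.983 (edgeR).

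Ccl6 was at 7.27, 19.2, 2.78, 3.42 and 4.84 CPM in the same IAKA mice and at 2.66, 2.44 and 0.930 CPM in the PBS mice. The groups only just failed to meet, at 2.78 and 2.66 CPM, and the log2 fold change was 1.84 ± 0.69 (SE), adjusted P of 0.790 (edgeR).

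Of the CXC members, Cxcl10 had the largest fitted difference of all 10. It was at 10.2, 6.57, 44.8, 8.24 and 3.02 CPM in IAKA mice 8, 67, 79, 97 and 98 and at 0.443, 1.15 and 0.143 CPM in PBS mice 1, 71 and 73. The groups were apart, IAKA mouse 79 stood far above the other 4, and the log2 fold change was 4.59 ± 0.98 (SE), adjusted P of 0.247 (edgeR). Cxcl1, whose promoter above holds 3 kB-type matches, was at 3.56, 3.54, 0.5, 1.04 and 0.605 CPM against 0.664, 0.968 and 0.143 CPM. Its groups overlapped, with IAKA mice 79 and 98 inside the PBS range, and the log2 fold change was 1.71 ± 0.91 (SE), adjusted P of 0.983 (edgeR). Without IAKA mouse 8 it was 0.75 ± 0.77 (SE).

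Cx3cl1 was at 103, 215, 345, 269 and 183 CPM in IAKA mice 8, 67, 79, 97 and 98 and at 105, 183 and 247 CPM in PBS mice 1, 71 and 73. The groups overlapped over most of their range, with a fitted log2 difference of 0.25 ± 0.37 (SE), adjusted P of 0.983 (edgeR). Its level also differed between the column prefixes. The 6 libraries of prefix 4, of both treatments and times, ran from 183 to 345 CPM (median 246), the 7 of prefix 5 from 101 to 148 CPM (median 120) and the 6 of prefix 3, all IAKA, from 99.0 to 215 CPM (median 144). The lowest library of prefix 4 was above the highest of prefix 5. Within prefix 4, IAKA mice 79 and 97 (345 and 269 CPM) lay above all 4 PBS libraries (183 to 247 CPM), and the fit of its 24-hour libraries gave 0.38 with an edgeR adjusted P of 0.423. Prefix is a name in the columns and is not explained in the sources used here, and its part in the Cx3cl1 levels was not tested.

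**Figure D2:**
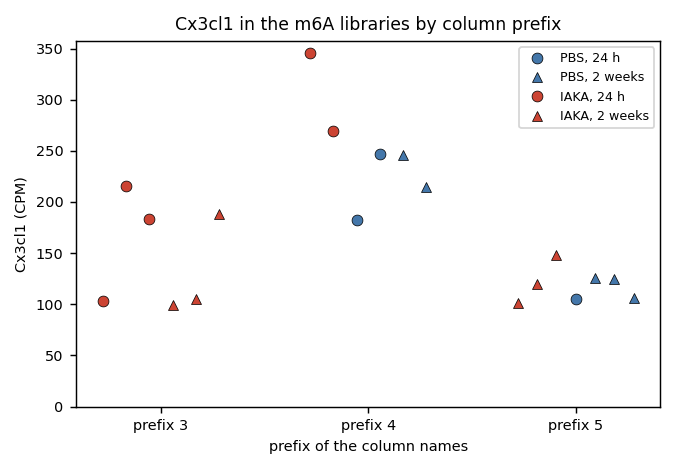
Cx3cl1 in CPM (linear axis from 0) in the 19 m6A libraries, grouped by the prefix of their column names, with colour for treatment and symbol for time. The 6 libraries of prefix 4 lie between 183 and 345 CPM, with both IAKA points above the 4 PBS points, and PBS and IAKA points are mixed within prefix 5.

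Total RNA at 24 hours offered 3 IAKA mice against 1 PBS mouse, so all 13 input libraries were fitted together and the PBS mouse was assumed to vary as the other groups do. Of 9 members tested, all had a higher fitted level in IAKA mice (Cx3cl1 a lower one, -0.14, on library size alone), none passed the threshold (edgeR), and neither did any of 17644 genes (0.0%). At an unadjusted P under 0.05, 1629 genes passed, and DESeq2 called 201 genes and no member. All genes together were shifted by a median of 0.27 on the log2 scale, or -0.04 when scaled by library size alone, and the members had a median of 2.04. In 7 of 10 members every IAKA library was above the PBS library, against 10.9% of the genes tested, which leave out Ccl5. For Ccl3, Ccl5 and Ccl7 not every IAKA library was above the counting error of that PBS library, as given below.

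Ccl2 was at 7.56, 9.28 and 4.86 CPM in the input of IAKA mice 8, 67 and 98 and at 0.394 CPM in PBS mouse 1. The PBS value is 5 counts, with an exact Poisson interval of 0.128 to 0.919 CPM (95%, counting error only), and all 3 IAKA mice were above it. Its log2 fold change of 4.44 ± 1.18 (SE; edgeR adjusted P of 0.315) was close to that in the m6A libraries of partly the same mice. Ccl12 was at 7.67, 6.00 and 3.84 CPM against 2.52 CPM, whose interval was 1.72 to 3.56 CPM. Its fitted difference was 1.55 ± 1.00 (SE; edgeR adjusted P of 0.679) here and 3.53 in the m6A libraries. Tested in 1 fit of both assays, the contrast of these effects was 1.99 ± 0.91 (SE; edgeR adjusted P of 1.00), and no gene of 20293 passed, with 162 at an unadjusted P under 0.05 and none in DESeq2.

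The contrast of the effects in both assays was above 0 in 7 of the 10 members. It was 2.37 ± 1.29 (SE) for Cxcl10 and -0.42 ± 1.19 for Ccl2. In the input, Cxcl10 was at 6.66, 6.73 and 3.33 CPM in IAKA mice 8, 67 and 98 against 1.5 CPM (interval 0.901 to 2.34) in PBS mouse 1. All 3 were above the interval, with a fitted log2 difference of 2.22 ± 1.03 (SE; edgeR adjusted P of 0.539). Ccl4 had no count among the 12694434 of PBS mouse 1 and was at 0.908, 3.09 and 0.512 CPM in the IAKA mice. The mean of the IAKA mice was at least 6.36-fold higher than the 3 counts that a library at 0 allows. Ccl3, at 0.706, 2.73 and 0.768 CPM against 0.394 CPM, and Ccl7, at 1.01, 2.36 and 0.512 CPM against 0.315 CPM, were higher in all 3 IAKA mice but rest on 2 to 15 counts a library. The interval of the PBS value was 0.128 to 0.919 CPM for Ccl3, which holds IAKA mice 8 and 98. For Ccl7 it was 0.0859 to 0.807 CPM, which holds IAKA mouse 98.

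Ccl5 did not reach the filter on low counts and was at 1.41, 1.45 and 0.768 CPM against 0.551 CPM. The interval of that PBS value was 0.222 to 1.14 CPM, which holds IAKA mouse 98. Ccl6 was at 7.46, 4.91 and 2.05 CPM in IAKA mice 8, 67 and 98 and at 2.84 CPM in PBS mouse 1, and Cxcl1 was at 2.92, 1.45 and 0.512 CPM against 1.42 CPM. Both overlapped the PBS mouse. Cx3cl1 was at 88.3, 125 and 141 CPM against 130 CPM, a fitted log2 difference of 0.15 ± 0.29 (SE; edgeR adjusted P of 0.852). With the 3 shallow libraries added, 2 members passed in edgeR, Ccl2 (adjusted P of 3.06e-05) and Cxcl10 (adjusted P of 0.0410), but the PBS libraries added hold no count of either, of 4621 and 34486 in all.

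Read per kilobase of the main annotated transcript, Cx3cl1 was the most abundant member in the input of IAKA mice at 24 hours, at 35.6 ± 8.11 CPM per kb (SD, n = 3). Ccl2 followed at 8.90 ± 2.74, Ccl12 at 7.27 ± 2.39 and Cxcl10 at 5.06 ± 1.77 CPM per kb, neighbours whose differences were within their spread. Ccl6 was at 3.34 ± 1.88 CPM per kb, and the other 5 lay between 1.60 and 2.26 CPM per kb.

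**Figure D3:**
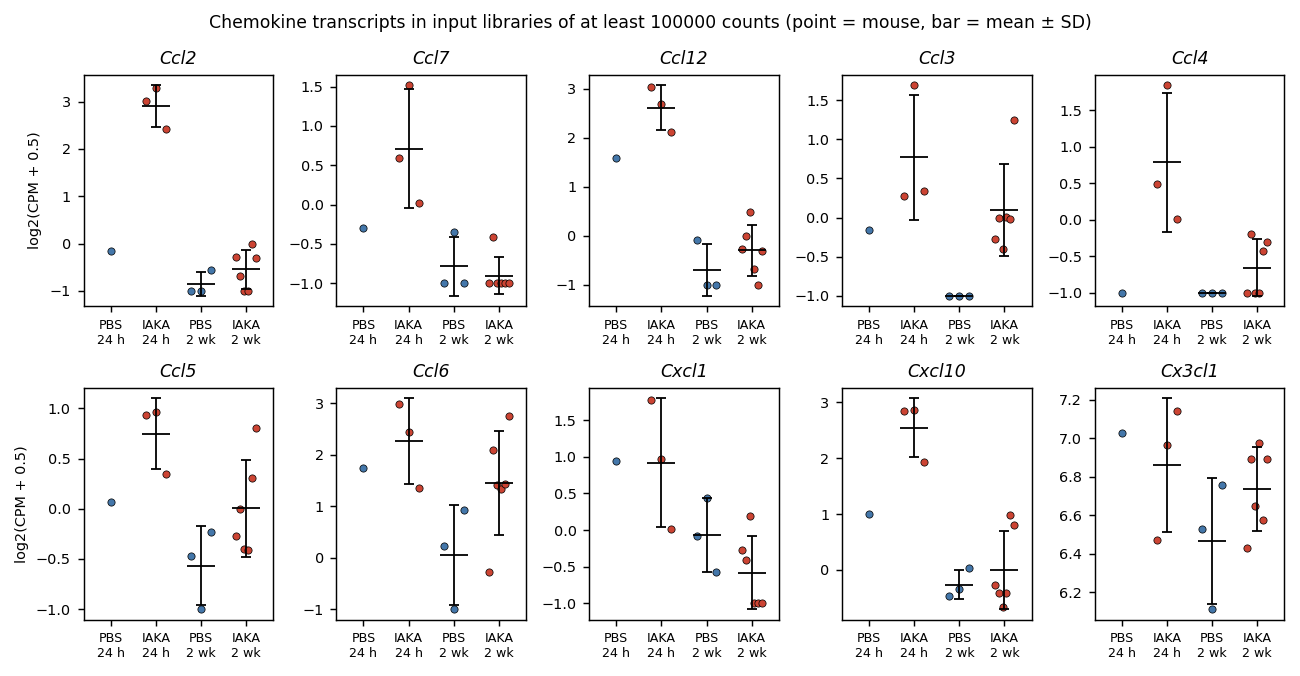
Level of each chemokine in the input libraries of at least 100000 counts as log2(CPM + 0.5), 1 point per mouse, with mean ± SD where a group has over 1 library (n = 1, 3, 3 and 6 from left to right). Ccl2 and Cxcl10 are high in all 3 IAKA 24-hour libraries. At 2 weeks Ccl3 has 1 to 6 counts in each of the 6 IAKA libraries and none in a PBS library.

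At 2 weeks every member but Ccl6 and Cx3cl1 was at 2.44 CPM or less in every m6A library of both treatments. Only Ccl6, Ccl12 and Cx3cl1 passed the filter on low counts in the m6A libraries, none passed the adjusted threshold (edgeR), and neither did any of 16157 genes (0.0%), with 809 at an unadjusted P under 0.05 and 15 in DESeq2. In 1 of 10 members, Ccl6, which is 1 of the 3 tested, every IAKA library was above every PBS library, against 0.26% of the genes tested.

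Ccl6 ran from 3.4 to 9.50 CPM in the 6 IAKA mice (median 6.28) and was at 2.02, 3.17, 1.98, 0.789 and 1.66 CPM in PBS mice 2, 3, 4, 50 and 78. The groups did not overlap, and the log2 fold change was 1.82 ± 0.41 (SE), with an unadjusted P of 6e-04 and an adjusted P of 0.746 (edgeR). Without IAKA mouse 6 it was 1.73 ± 0.43 (SE), and DESeq2 gave an adjusted P of 0.0144. Within prefix 5, which holds 3 IAKA and 3 PBS mice, it was 1.40 ± 0.47 (SE). Over all m6A libraries, the difference at 24 hours (1.84) and that at 2 weeks (1.82) were alike in size, and their difference was -0.01 ± 0.71 (SE; edgeR adjusted P of 1.00). Within prefix 4, the 24-hour difference was smaller, at 0.72. The values of Ccl2 at 2 weeks, set beside these, were between 0.120 and 0.380 CPM in IAKA mice and between 0 and 0.682 CPM in PBS mice.

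In the input libraries at 2 weeks Ccl6 ran from 0.327 to 6.24 CPM in the 6 IAKA mice (median 2.19) and was at 0.666, 0 and 1.40 CPM in PBS mice 2, 3 and 4. IAKA mouse 5, with 1 count, lay within the PBS range. The difference of mean log2(CPM + 0.5) was 1.41 (exact permutation test, two-sided P of 0.119; smallest possible 0.0238).

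Ccl3 was the other member with an unadjusted P under 0.05 at 2 weeks. In the m6A libraries it ran from 0.112 to 1.65 CPM in IAKA mice (median 0.787) and was at 0.144, 0.183, 0, 0 and 0.195 CPM in PBS mice 2, 3, 4, 50 and 78. IAKA mice 5 and 7 lay within the PBS range, and the difference of mean log2(CPM + 0.5) was 0.95 (exact permutation test, two-sided P of 0.0433; smallest possible 0.00433). In the input it ran from 0.256 to 1.87 CPM in the 6 IAKA mice and had no count in any of the 3 PBS mice. The share of all genes separated in this way was not computed for the input at 2 weeks. The exact permutation test gave the smallest P it can, 0.0238, on 1 to 6 counts a library, and the mean of the IAKA mice was at least 3.01-fold higher than 3 counts over the PBS group. These P values are not adjusted for the 16 such tests made.

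The remaining members did not separate at 2 weeks. In the m6A libraries Ccl12 ran from 0.504 to 1.56 CPM in IAKA mice and from 0 to 2.44 CPM in PBS mice, Cxcl10 from 0.131 to 1.85 and from 0 to 1.17 CPM, and Ccl4 from 0 to 0.810 and from 0 to 0.0975 CPM. Ccl7 had no count in any of the 5 PBS mice and at most 2 counts in an IAKA mouse. Ccl5, at 0.196 to 0.752 CPM against 0.0611 to 2.28 CPM, and Cxcl1, at 0.116 to 1.17 CPM against 0 to 0.487 CPM, overlapped as well, and the exact permutation tests of Ccl2, Ccl4, Ccl5, Ccl7, Cxcl1 and Cxcl10 gave two-sided P between 0.0649 and 0.775.

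Cx3cl1 ran from 99.0 to 188 CPM in IAKA mice and was at 126, 125, 106, 246 and 215 CPM in PBS mice 2, 3, 4, 50 and 78, the last pair being of prefix 4. Its log2 fold change was -0.29 ± 0.26 (SE; edgeR adjusted P of 0.881), and 0.13 ± 0.22 within prefix 5. In the input at 2 weeks it was the only member tested, at 85.7 to 126 CPM in IAKA mice against 91.9, 68.7 and 108 CPM, a fitted log2 difference of 0.30 ± 0.17 (SE; edgeR adjusted P of 0.445). No gene of 13752 passed there (0.0%), against 1938 at an unadjusted P under 0.05 and 113 in DESeq2.

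**Figure D4:**
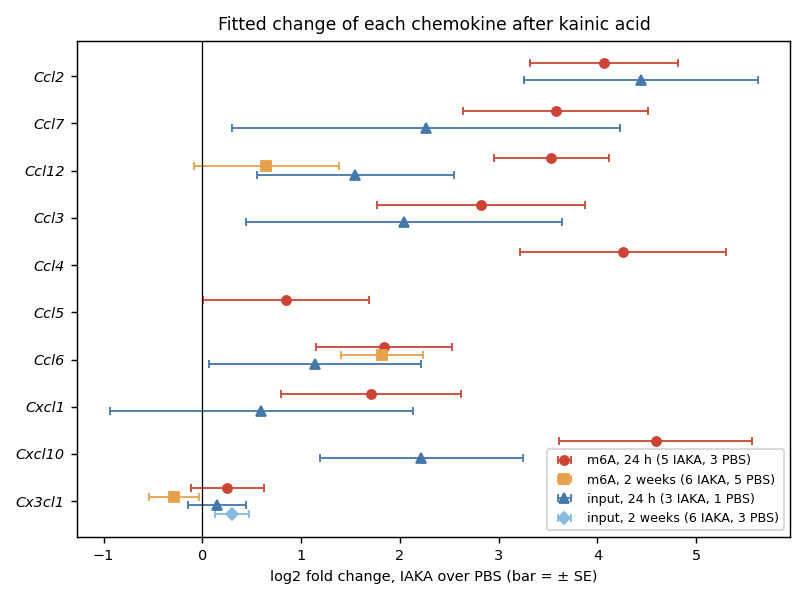
Fitted log2 fold change of IAKA over PBS with its SE for each member that passed the filter on low counts, in m6A and input libraries at both times. Ccl4 in the input at 24 hours is left out because its PBS library is at 0. The 24-hour points of Ccl2, Ccl12 and Cxcl10 in the m6A libraries lie at 4.06, 3.53 and 4.59, and those of Cx3cl1 lie between -0.29 and 0.30 in the 4 comparisons.

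Tested directly, the difference between the times passed for no member, against 0.00573% of 17440 genes, again the 1 gene Tm4sf1 (edgeR, all 19 m6A libraries). At an unadjusted P under 0.05, 428 genes passed, and DESeq2 called 5. The effect was larger at 24 hours than at 2 weeks by 3.6 ± 1.05 (SE) on the log2 scale for Ccl2, by 2.85 ± 0.98 for Ccl12 and by 3.14 ± 1.35 for Cxcl10, with edgeR adjusted P of 1.00 for each. Without PBS mouse 78 at 2 weeks these were 2.61 for Ccl2, 1.25 for Ccl12 and 1.94 for Cxcl10, and without PBS mouse 71 at 24 hours 4.39 for Ccl2 and 4.11 for Cxcl10. For Cx3cl1 the difference was 0.54 ± 0.45. In the input none of 9 members passed, nor did any gene of 17644, with 543 at an unadjusted P under 0.05 and 4 in DESeq2.

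The m6A pulldown can be set against the input of the same mouse in 3 IAKA animals at 24 hours. Ccl12 had the largest log2 difference of the 6 members tested, at 16.2 against 7.67 CPM in mouse 8, 31.3 against 6.00 in mouse 67 and 13.9 against 3.84 in mouse 98, which are ratios of 2.11, 5.22 and 3.62. Every mouse had a ratio above 1, and the log2 difference was 1.43 ± 0.44 (SE; edgeR adjusted P of 1.00), or 1.43 ± 0.28 with the mouse as a block (edgeR adjusted P of 0.104). Without mouse 8, the blocked fit of the other 2 mice called Ccl12 (1.82 ± 0.32, SE; edgeR adjusted P of 3.20e-07) and Ccl6 (1.37 ± 0.40, SE; edgeR adjusted P of 0.00564) among 2513 genes, against 20 genes with all 3 mice. None of 6 members tested passed in the unblocked fit, and no gene of 14029 did (0.0%), with 479 at an unadjusted P under 0.05 and 22 in DESeq2. In PBS mouse 1, the PBS animal at 24 hours whose input was used, Ccl12 had a ratio of 1.32.

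Ccl2 had ratios of pulldown to input of 1.40, 2.51 and 1.12 in mice 8, 67 and 98, and Cxcl10 had 1.53, 0.976 and 0.909. Cxcl10 had a ratio just under 1 in mice 67 and 98, and a fitted log2 difference of 0.10 ± 0.61 (SE). All these ratios, with those of Ccl12, are of CPM. Scaled by library size alone, the median log2 difference of all genes tested was 0.29, so a typical gene has a ratio above 1. Cx3cl1 had ratios of 1.17, 1.73 and 1.3, a log2 difference of 0.19 ± 0.24 (SE; edgeR adjusted P of 1.00).

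At 2 weeks, with 6 IAKA mice, 2 members were tested and neither passed in the unblocked fit, against 2.64% of 15413 genes (edgeR). Ccl6 was higher in the pulldown in all 6 mice. Its ratio could be given in 5, from 1.45 to 4.32, and mouse 5 had 63 counts in the pulldown against 1 in the input. The log2 difference was 1.02 ± 0.44 (SE; edgeR adjusted P of 0.219), and 1.05 ± 0.27 (SE; edgeR adjusted P of 0.0431) with the mouse as a block, which passed. Ccl6 was also higher in the pulldown in PBS mice 2, 3 and 4, at 2.02, 3.17 and 1.98 CPM against 0.666, 0 and 1.40 CPM. Cx3cl1 had ratios between 0.887 and 1.59 in the IAKA mice, a log2 difference of 0.04 ± 0.18 (SE; edgeR adjusted P of 0.925). Scaled by library size alone, the median log2 difference of all genes tested was 0.19 at this time.

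**Figure D5:**
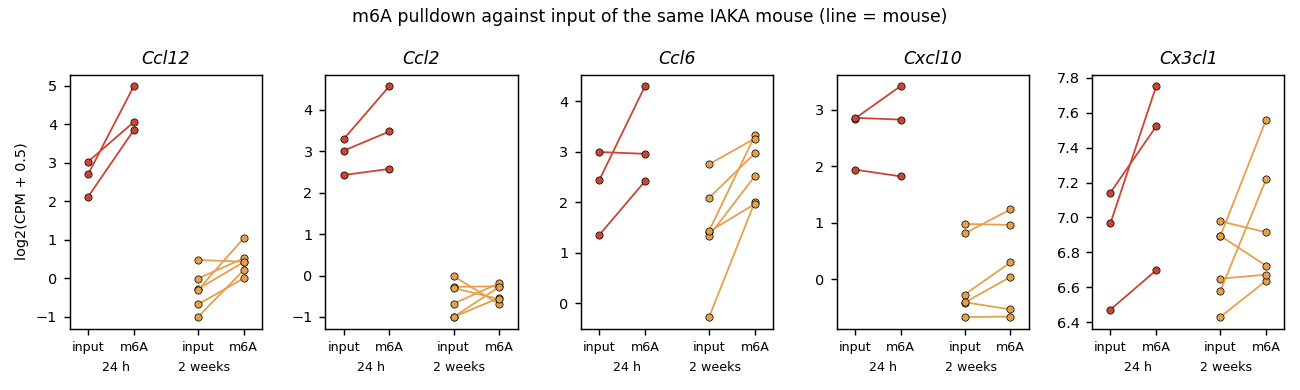
Level of 5 chemokines in the input and in the m6A pulldown of the same IAKA mouse as log2(CPM + 0.5), 1 line per mouse, 3 mice at 24 hours and 6 at 2 weeks. The Ccl12 lines rise in all 3 mice at 24 hours and the Ccl6 lines in all 6 at 2 weeks, and the Cx3cl1 lines at 2 weeks run both ways.

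The m6A mark is most often placed within GGAC sequences, of which GGACT is a common form. In the GENCODE transcripts numbered 201, GGACT (5 letters, transcript strand) occurs in 86.8% of 20863 protein-coding transcripts, at a median of 1.03 per kb. The sites below are those of Ccl2, Ccl6 and Cxcl10 and 2 of the 9 of Cx3cl1, with GGACT in capitals and up to 8 bases on each side, written with T for U.

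Ccl2, 3′ UTR, 9 bases after the stop codon: tgtgactcGGACTgtgatgcc
Ccl6, 3′ UTR, 135 bases after the stop codon: attcatgtGGACTccgcctga
Ccl6, 3′ UTR, 437 bases after the stop codon: tagccacaGGACTgtctcttt
Cxcl10, coding sequence: tctgagtgGGACTcaagggat
Cx3cl1, coding sequence: ccactaggGGACTgtccccat
Cx3cl1, 3′ UTR, 857 bases after the stop codon: attccactGGACTgacatttt

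Ccl12, with the largest log2 difference between pulldown and input at 24 hours among the 6 members tested, holds no GGACT in its 803 bases, and Ccl4 holds none in 687. Cx3cl1 holds 9 in 3315 bases, 2.71 per kb, which is above 96.1% of transcripts, and its pulldown and input levels differed by 0.19 ± 0.24 (SE) on the log2 scale at 24 hours and by 0.04 ± 0.18 at 2 weeks. Ccl2, Ccl3, Ccl5 and Ccl7 hold 1 each in 813, 776, 535 and 807 bases. The absence of these 5 letters says only that they are not in that transcript.

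Likeness to a member was measured as Pearson's correlation of log2 CPM over the 19 m6A libraries, which share their prefixes and groups, and is a description. The genes most like Ccl2 were Msr1 (0.96), Ccl12 (0.96), Ccl7 (0.94), Tnn (0.93) and Tnf (0.93) among 17439 genes. Msr1 encodes a scavenger receptor of macrophages, Tnf the cytokine TNF and Tnn the matrix protein tenascin N, and 2 of the 5 were members. Those most like Cx3cl1 were Irf2bpl (0.96), Pcdhgc5 (0.95), Tmem104 (0.94), Med26 (0.94) and Ldoc1l (0.94), with no chemokine among them.

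Among the 22 chemokine receptors, 15 were tested in the m6A libraries at 24 hours and none passed the threshold in either direction (edgeR), with a median log2 fold change of 0.36. Ccr2, the receptor of Ccl2, Ccl7 and Ccl12, ran from 7.26 to 32.2 CPM in IAKA mice against 5.37 to 13.2 CPM, a fitted log2 difference of 0.77 ± 0.62 (SE). Ccr1, a receptor of Ccl3 and Ccl5, ran from 0 to 6.31 CPM against 0.0715 to 2.08 CPM (1.60 ± 1.14, SE). The groups overlapped for both of these receptors. Cxcr2 ran from 13.1 to 203 CPM against 22.7 to 37.0 CPM (1.17 ± 0.96, SE), and Cx3cr1 from 61.1 to 137 CPM against 63.7 to 91.4 CPM (0.31 ± 0.32, SE). Cxcr3, the receptor of Cxcl10, did not pass the filter and was at most 0.148 CPM in every m6A library of IAKA mice at 24 hours. In those of mice 67 and 98, a count of 0 still allows 1.52 and 1.81 CPM. These receptors are named because they bind members, with their values already known. At 2 weeks 13 receptors were tested and none passed, with a median of 0.19.

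Of 28 other chemokines, 15 were tested at 24 hours and none passed, with a median log2 fold change of 0.48 against 3.18 for the members. The members and this list were chosen with earlier results of these data known, so these medians are a description. Cxcl16 (1.38 ± 0.43, SE), the membrane-bound ligand of Cxcr6, and Ccl9 (1.44 ± 0.52, SE) were among the higher ones, and Cxcl14 (-0.73 ± 0.23, SE) was lower, each named after its value was seen, with edgeR adjusted P between 0.587 and 0.726. Of 17 upstream signals, which are cytokines and factors that induce chemokines, 14 were tested, all had a higher fitted level in IAKA mice, none passed, and the median was 0.63. Stat3, a factor activated by IL-6 family cytokines, ran from 44.3 to 116 CPM in IAKA mice against 26.0 to 29.3 CPM, a fitted log2 difference of 1.61 ± 0.28 (SE; edgeR adjusted P of 0.124). Irf7, an interferon regulatory factor, ran from 4.01 to 19.4 CPM against 0.930 to 3.87 CPM, and Tnf from 0.605 to 2.53 CPM against 0 to 1.08 CPM. These 3 were also named after their values were seen. At 2 weeks none of 14 other chemokines or 12 upstream signals tested passed.

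Markers of cells that make or answer chemokines were measured in the same libraries. The summed level of 8 microglia markers ran from 65.7 to 222 CPM in IAKA and from 133 to 160 CPM in PBS mice in the m6A libraries at 24 hours, that of 6 monocyte markers from 92.2 to 260 against 51.5 to 110 CPM, and that of 6 neutrophil markers from 6.76 to 28.9 against 4.72 to 14.3 CPM. The monocyte markers had a median log2 fold change of 1.00 (4 of 4 tested above 0) and the neutrophil markers one of 1.61 (3 of 3 above 0). The sums of these 3 lists overlapped between the treatments, no marker passed the threshold (edgeR), and no monocyte or neutrophil marker was at 0 in every library of either group. In the PBS m6A libraries at 2 weeks, the monocyte marker Plac8 and the neutrophil marker Ly6g were at 0, and are named for that. P2ry12, a marker of resting microglia, had a fitted log2 difference of -1.30 ± 0.31 (SE; edgeR adjusted P of 0.323) and was named after its value was seen. It is 1 of the 8 microglia markers and does not stand for the list. Their sum in the m6A libraries at 24 hours had a mean of 152 CPM in IAKA and 145 CPM in PBS mice. At 2 weeks the microglia markers summed to 137 to 384 CPM in IAKA against 118 to 161 CPM in PBS mice, and the groups overlapped. Of these markers 7 of 8 were above 0 on the log2 scale and none passed the threshold. Excitatory neuron markers, 5 of 5 below 0 at 24 hours with a median log2 fold change of -0.41, summed to 1239 to 3550 CPM in IAKA and 3252 to 4623 CPM in PBS libraries. Of the other markers at 24 hours, those of border macrophages (median log2 fold change 0.80), choroid plexus (0.86), endothelium (0.60), blood (0.53), T cells (0.34), astrocytes (0.25), inhibitory neurons (0.03) and oligodendrocytes (-0.45) included none past the threshold. The summed endothelial level was separated in the m6A libraries, at 288 to 459 CPM in IAKA against 199 to 265 CPM in PBS mice, and the other sums overlapped. The choroid plexus sum was uneven, from 28.9 to 972 CPM in IAKA and from 45.7 to 598 CPM in PBS mice, so the groups overlapped. In the input at 24 hours the endothelial sum was not separated, at 420 to 1200 CPM in IAKA mice and 882 CPM in PBS mouse 1. The part of these cells in the chemokine levels was not tested.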

How the data were processed

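Gene counts per sequencing lane were deposited by the authors as tables with 1 row per gene symbol, made on mouse build mm10 per the submitters' processing notes, while aligner and counter, and whether counting used strand, were not given in the sources used here. The 4 lanes of each of 35 libraries were summed, and 8 columns that match no label were not used. CPM were taken over all counts of a library. Groups and mouse numbers came from the labels. Input libraries under 100000 counts were left out.

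IAKA and PBS were compared with edgeR 4.0.16 in R 4.3.3 (limma 3.58.1): TMM scaling, filterByExpr with a minimum count of 10, robust quasi-likelihood tests, and Benjamini-Hochberg adjustment over all genes tested at 0.05. The m6A tests used the libraries of that time, as did the input test at 2 weeks (9 libraries), and the input test at 24 hours and that between times used all 13 input libraries. The SE is the log2 fold change divided by the root of F. Members below the filter at 2 weeks were compared by an exact permutation test on log2(CPM + 0.5). The intervals and the floor of 3 counts cover counting error only. P values of IAKA against PBS measure the spread between mice, but the 1 PBS input at 24 hours gives no spread of its own group. In the main fits of pulldown against input and of the contrast of assays, both libraries of a mouse entered as independent. Those P values leave out the pairing. DESeq2 1.42.0, other scalings and filters, library sets, all labelled libraries, the mouse as a block and leaving out each library were alternatives.

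Same-numbered m6A and input libraries come from the same mouse per the labels. Their deviations from the group means correlated at 0.613 to 0.827 at 24 hours and 0.139 to 0.538 at 2 weeks. The mouse served as a block in the alternative fits and not in the main ones. The smallest chi-square per degree of freedom between replicates was 5.12, so no library was counted as a repeat of another.

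The members and the lists of receptors, other chemokines, upstream signals and markers of microglia, border macrophages, monocytes, neutrophils, T cells, astrocytes, endothelium, excitatory and inhibitory neurons, oligodendrocytes, choroid plexus and blood were chosen with earlier results of these data known. All 10 members were named, up to 3 genes of a list past the threshold in the m6A libraries (none were), and the 5 genes most like Ccl2 and Cx3cl1; the receptors of members and any other gene were named with their values known. Promoters were read from a RefSeq table of GRCm38.p6 and transcripts from GENCODE vM39. Figures were drawn with matplotlib 3.10.9.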

Additional observations from a re-analysis of the deposited data

Results flagged for a closer look

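In 10 of the 40 groups of values tested (each member in the groups of 4 to 10 libraries), 1 mouse lay far from the others of its group by Dixon's criterion. Chance alone gives about 1 in 20 for normally distributed values. The criterion was applied to CPM, and several of these groups rest on few counts near 0, so that rate need not hold here. In the m6A libraries at 24 hours, IAKA mouse 79 had 44.8 CPM of Cxcl10, and IAKA mouse 67 had 19.2 CPM of Ccl6 and 3.03 CPM of Ccl5. At 2 weeks, PBS mouse 78 lay far above its group in the m6A level of 3 members, with 0.682 CPM of Ccl2, 2.44 CPM of Ccl12 and 1.17 CPM of Cxcl10. PBS mouse 4 had 2.28 CPM of Ccl5, and IAKA mouse 6 had 1.17 CPM of Cxcl1. In the input at 2 weeks, IAKA mouse 42 had 1.87 CPM of Ccl3 and IAKA mouse 6 had 0.249 CPM of Ccl7, the latter on 2 counts.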

How the results depend on the processing

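Of 943 fold changes of members recomputed under other settings, 893 kept their direction and side of the threshold, 15 came past it and 35 turned direction. Of the group means in CPM, 79 moved by less than the spread when scaled by TMM, and Cx3cl1 in the 1 PBS input library at 24 hours was 113 in place of 130 CPM. With the settings given under the processing, no member was called in any comparison. In the m6A libraries at 24 hours, 5 were called by DESeq2 (156 genes), 2 with no filter (22 genes) and 1 with all 19 libraries in 1 fit (31 genes), and leaving out 1 library gave 0 to 1 (0 to 45 genes, 45 without IAKA mouse 8). Scaling by library size alone called 3 genes there, and the prefix as a block or leaving out the shallowest pair of libraries none, against 1. At 2 weeks DESeq2 called 1 (15 genes, with 0 to 1 as libraries were left out, 2 with no filter and 1 with all 19 libraries). In the input at 24 hours, 2 were called with all 7 labelled libraries (75 genes), and 180 genes but no member without IAKA mouse 8, against 0 to 1 gene without another library, 3 with no filter and 1 on library size alone. In the input at 2 weeks DESeq2 called 113 genes, no filter gave 4, and leaving out a library 0 to 1. The difference between times called 5 (m6A) and 4 (input) genes in DESeq2, and 1 with all 16 input libraries.

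With the mouse as a replicate block, 1 member (Ccl6) was called between pulldown and input at 2 weeks (1339 against 407 genes, 962 in DESeq2, 1346 on library size alone, and 117 to 1282 with a library left out). At 24 hours none was called with the block (20 genes, against 22 in DESeq2 with no block), 19 to 2513 genes passed with 1 mouse left out of it, and 2 members were called without mouse 8, where Cxcl10 turned to -0.45. For the contrast of assays at 2 weeks the block changed no member's call (1 gene, and 4 in DESeq2), and at 24 hours it was not fitted. Leaving out each library was not run for these contrasts.

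Small differences turned direction. At 24 hours in the m6A libraries Ccl5 was -0.23 with the column prefix as a block and -0.27 within prefix 4 (356 genes called there), and Cx3cl1 ran from -0.019 to 0.62 as single libraries were left out. At 2 weeks Cx3cl1 was 0.11 with the prefix as a block and 0.13 within prefix 5. In the input at 24 hours Cx3cl1 was -0.14 on library size alone. The difference of the m6A effects between times for Ccl6 was 0.031 in DESeq2, 0.075 on library size and 0.026 with a mean of at least 10 counts, and ran from -0.57 to 0.26 with single libraries left out, and that for Ccl3 from -0.66 to 2.45. In the input that difference for Ccl12 was -0.084 on library size and ran from -2.83 to 0.87, and for Cx3cl1 it was 0.057 with all 16 libraries. Between pulldown and input of IAKA mice, leaving out single libraries gave -0.28 to 1.37 for Cxcl1 and -0.73 to 0.42 for Cxcl10 at 24 hours, and -0.093 to 0.13 for Cx3cl1 at 2 weeks. The cause was not tested. The fits within a prefix, without robust estimation, without the shallowest pair of libraries and with mice left out of the block were chosen after seeing the data.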
